A study of Mus musculus with 39 samples.

Results

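The 10 genes described here, H2-K1, H2-D1, B2m, Tap1, Tap2, Tapbp, Nlrc5, Psmb8, Psmb9 and Psmb10, build the mouse MHC class I complex, load it with peptide, or belong to the immunoproteasome that cuts those peptides. They were chosen by symbol, and all 10 were found among the 46333 genes of the female count table and the 54532 genes of the male count table. The RNA came from cells of the cerebrum pulled down with CD11b beads, from WT mice and from 5XFAD mice, which express human transgenes with familial Alzheimer's disease mutations in neurons under the Thy1 promoter. Each genotype was held in normoxia (NX, 21% O2) or underwent chronic intermittent hypoxia (CIH, a swing between 21% and 6.5% O2 in 90-second intervals over 8 h per day, begun at 4 months of age). These CIH settings are those of the sample labels, and the paper's methods give a lower oxygen minimum and a longer daily exposure. Females were 10 months old, with 4 libraries of WT NX and 5 of each other group. Males were 8 months old, with 5 libraries in each of the same groups. Sex, age and gene table cannot be told apart here, so the female and male values were compared only within their own table. The 5XFAD stock has B6SJL and C57BL/6J ancestry, and the class I alleles that each mouse carried were not analyzed here. CD11b is also carried by neutrophils, monocytes and border macrophages, so the libraries need not hold microglia alone.

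MHC class I presents short peptides from the inside of a cell to CD8+ T cells and to natural killer cells. Proteasomes cut proteins into peptides, and in cells exposed to interferon the catalytic subunits Psmb6, Psmb7 and Psmb5 are exchanged for Psmb9, Psmb10 and Psmb8. The Tap1/Tap2 transporter moves the peptides into the endoplasmic reticulum, where tapasin (Tapbp) helps to load them onto a heavy chain (H2-K1 or H2-D1) paired with beta-2 microglobulin (B2m). Nlrc5 is the transactivator that drives most of these genes from their promoters. Resting microglia carry little class I at their surface, and its increase is a known part of the response of microglia to amyloid.

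In GRCm38, 7 of the 10 genes lie in or beside the MHC on chromosome 17. They are Tapbp (chr17:33915899-33929288, plus strand), H2-K1 (chr17:33996017-34000333, minus), Psmb9 (chr17:34181988-34187764, minus), Tap1 (chr17:34187553-34197225, plus), Psmb8 (chr17:34197721-34201454, plus), Tap2 (chr17:34203527-34216321, plus) and H2-D1 (chr17:35262730-35267499, plus). Psmb9 and Tap1 stand head to head. Their spans in the male table, given here, overlap by 212 bases, where reads of both genes may not be told apart, while their RefSeq start sites lie 225 bases apart without overlap. B2m lies on chromosome 2 (chr2:122147686-122153083, plus), and Nlrc5 (chr8:94434356-94527272, plus) and Psmb10 (chr8:105935735-105938444, minus) lie on chromosome 8.

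RefSeq promoters of GRCm38.p6 are shown for members that rose in 5XFAD mice in at least the CIH comparisons of both sexes, because class I promoters are known to respond to interferon through the interferon-stimulated response element (ISRE, here GAAA, any 2 bases and GAAA) and to Nlrc5 complexes that include the factors binding the Y box, CCAAT. The 250 bases before the start site were searched on both strands for ISRE letters, for the shorter form GAANNGAAA, for the gamma-activated site TTCNNNGAA (GAS), which reads alike on both strands, and for CCAAT. An entry was found for 8 of the 10 genes, all but Tap2 and Nlrc5. Matches are in capitals, 30 bases are shown around each ISRE-type or GAS match, read on the strand that carries it, and no 2 matches of the first 3 motifs overlapped. H2-T23, a class I gene outside the 10, is shown because its profile was the most like theirs. The H2-K1 and H2-D1 matches have the same letters. Distances count from the RefSeq start site, which for H2-D1 and Psmb8 lies inside the gene span of the male table given above, so their matches lie inside that span too.
B2m, chr2:122147538-122147567, plus strand, ISRE 139 to 130 bases before the start: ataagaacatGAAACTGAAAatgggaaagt
H2-T23, chr17:36032806-36032835, plus strand, ISRE 124 to 115 bases before the start: gtgtctttatGAAAGAGAAAgcagtaggat
H2-K1, chr17:34000418-34000447, plus strand, shorter form 90 to 82 bases before the start: ggttaggtgcaGAAGTGAAActgtggagat
H2-D1, chr17:35262934-35262963, minus strand, shorter form 150 to 142 bases before the start: ggttaggtgcaGAAGTGAAActgaggagat
Psmb8, chr17:34198088-34198117, plus strand, GAS 97 to 89 bases before the start: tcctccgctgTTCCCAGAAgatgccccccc

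The windows of B2m (without the base next to the start site) and H2-K1, the light chain and a heavy chain of the same complex, show the interferon match and a Y box (ATTGG on the gene's strand) together.
B2m, chr2:122147437-122147685, plus strand: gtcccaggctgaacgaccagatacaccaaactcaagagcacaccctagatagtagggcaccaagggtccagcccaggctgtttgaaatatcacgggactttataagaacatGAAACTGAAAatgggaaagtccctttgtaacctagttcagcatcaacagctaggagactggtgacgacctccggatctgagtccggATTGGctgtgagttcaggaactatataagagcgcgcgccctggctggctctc
H2-K1, chr17:34000348-34000597, minus strand: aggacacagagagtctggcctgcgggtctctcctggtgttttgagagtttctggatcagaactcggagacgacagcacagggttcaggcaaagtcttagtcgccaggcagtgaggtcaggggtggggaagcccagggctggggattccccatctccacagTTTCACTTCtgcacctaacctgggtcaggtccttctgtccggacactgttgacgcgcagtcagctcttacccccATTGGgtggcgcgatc
Of 32851 RefSeq windows of this length, 2.98% held the ISRE letters, 6.31% the shorter form, 7.02% the GAS letters and 33.8% CCAAT. Tap1, Tapbp and Psmb9 also rose in the CIH comparisons of both sexes, and their windows held no ISRE, shorter form or GAS match. A Y box was found for H2-K1, H2-D1, B2m, Tap1, Tapbp and Psmb9, and none of the 4 motifs was matched in the Psmb10 window. These matches are letters in a sequence and not measured binding sites.

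Total counts ran from 14731683 to 25906121 per female library and from 13457293 to 23095627 per male library, and the lowest count of any of the 10 genes in any library was 165. Levels are given as CPM, read counts scaled to the TMM-adjusted library size within a table, or as deposited FPKM, which also divides by gene length, where 2 genes are compared. A gene is said to have risen or fallen where the edgeR quasi-likelihood test gave an adjusted p below 0.05 over all genes tested. It is called a DEG where log2FC was also above 1 or below -1. The replicates are numbered samples of 1 group, so p-values measure the spread between these samples.

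Libraries standing apart are named first. Among female 5XFAD NX, replicate 4 sat with WT NX by expression. On the first principal component of the NX females, which held 59.7% of the variance, it scored 43.5, against 31.6 to 52.1 in WT NX and -68.1 to -31.0 in the other 4. Cst7, a protease inhibitor that microglia make around amyloid plaques, stood at 16.4 CPM in it, against 1154 to 2462 in the other 4 and 11.9 to 17.3 in WT NX. It also had the smallest total count of the female libraries and 38551 detected genes, the most of all 39, against 21697 to 22148 in the other 4 and 22171 to 25029 in WT NX. The library goes against its label as a 5XFAD sample, and the comparisons of 5XFAD NX females are given with and without it. Among male 5XFAD NX, replicates 4 and 5 differed from replicates 1 to 3. On the second component of the NX males (24.2% of the variance) they scored -74.1 and -73.4, against 27.0 to 32.6 in replicates 1 to 3. Cst7 was high in all 5 (1844 and 1869 CPM against 2925 to 3718), and 17.8 to 27.1 CPM in WT NX. Replicates 4 and 5 held more detected genes (22743 and 22621 against 18350 to 19777), and their deviations from the WT NX mean rose with gene length (Spearman 0.272 and 0.285 across genes, against -0.179 to -0.101). Male WT CIH replicate 5 had 33169 detected genes, against 21900 to 24461 in the rest of its group and 18385 to 21676 in WT NX. With it left out, all 10 genes still passed between WT CIH and 5XFAD CIH males, against 24.4% of all genes, and 5 were DEGs, against 12.2%. Detected genes also varied within both CIH groups of females. Female WT CIH replicates 2, 3 and 5 had 29182, 30187 and 27353, against 21750 and 22420 in replicates 1 and 4. Female 5XFAD CIH replicates 1 and 4 had 30614 and 32221, against 22784 to 23015 in the rest of their group.

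In normoxic WT microglia, the light chain was the most abundant member. In WT NX females, B2m stood at 1715 ± 191 FPKM (SD, n = 4), H2-D1 at 407 ± 86.1, H2-K1 at 255 ± 50.2 and Tapbp at 121 ± 8.96. The immunoproteasome subunits Psmb8, Psmb10 and Psmb9 followed with 76.7 ± 8.19, 60.8 ± 7.91 and 52.8 ± 0.802 FPKM, and Tap2 and Tap1 had 59.2 ± 1.79 and 30.7 ± 4.13. Nlrc5 was lowest at 3.44 ± 0.895 FPKM. Psmb10 and Tap2 did not differ beyond their spread, and nor did Psmb9 and Psmb10. In WT NX males the order again began with B2m (2508 ± 460 FPKM, n = 5), H2-D1 (267 ± 39.6), H2-K1 (231 ± 28.0) and Tapbp (115 ± 4.26). Psmb10 (55.6 ± 7.94), Psmb8 (34.5 ± 5.86), Tap2 (27.0 ± 2.10), Psmb9 (18.6 ± 2.78), Tap1 (17.0 ± 1.09) and Nlrc5 (1.50 ± 0.404) followed, where H2-D1 and H2-K1, and Psmb9 and Tap1, were within their spread of each other.

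The first comparison asked how the genes differed between 5XFAD and WT mice within each treatment. The heavy chains, B2m and Nlrc5 rose in 5XFAD mice in both sexes and under both treatments, by 2.33-fold to 5.07-fold, and each was a DEG each time. Tap1 rose each time by 1.56-fold to 1.77-fold, without reaching the fold limit. Tap2 and Psmb10 passed the test in CIH males only among the 4 comparisons of 5XFAD with WT. The median log2FC of the 10 genes was 0.77 in NX females, 0.76 in CIH females, 0.60 in NX males and 1.10 in CIH males, where that of all genes tested was -0.02, -0.02, 0.02 and -0.06.

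Counted by comparison, 4 of the 10 were DEGs in NX females, where 4.40% of all genes tested were DEGs with a higher level, and 5 passed the adjusted p alone, against 7.26% of all genes. Only Nlrc5 had 5XFAD values that all lay above the WT values, as did 3.43% of genes. Without female 5XFAD NX replicate 4, 4 were still DEGs against 7.16% of all genes, 8 passed the adjusted p alone against 21.8%, and the median log2FC was 0.92. Leaving out any 1 of the other 8 libraries of this comparison left 0 to 3 DEGs among the 10, where 0.140% to 2.85% of all genes were DEGs with a higher level. In CIH females, 4 were DEGs (8.83% of all genes), 8 passed the adjusted p (26.2%) and 7 did not overlap between the groups (18.8%). Tap2 and Psmb10 were those that did not pass. In NX males, 4 were DEGs (5.94% of all genes), 5 passed the adjusted p (10.4%) and 4 did not overlap (8.57%). Without male 5XFAD NX replicates 4 and 5, 9 passed, all but Tap2, against 17.9% of all genes, and the median was 0.90. In CIH males, 5 were DEGs (11.8% of all genes), all 10 passed (25.3%) and 8 did not overlap (19.4%). DEGs with a lower level in 5XFAD mice were 231 of 14513 genes in NX females and 615 of 14911 in CIH females. They were 343 of 14834 in NX males and 1018 of 14793 in CIH males. These numbers are also the background of the gene-list counts given further on.

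**Figure D1:**
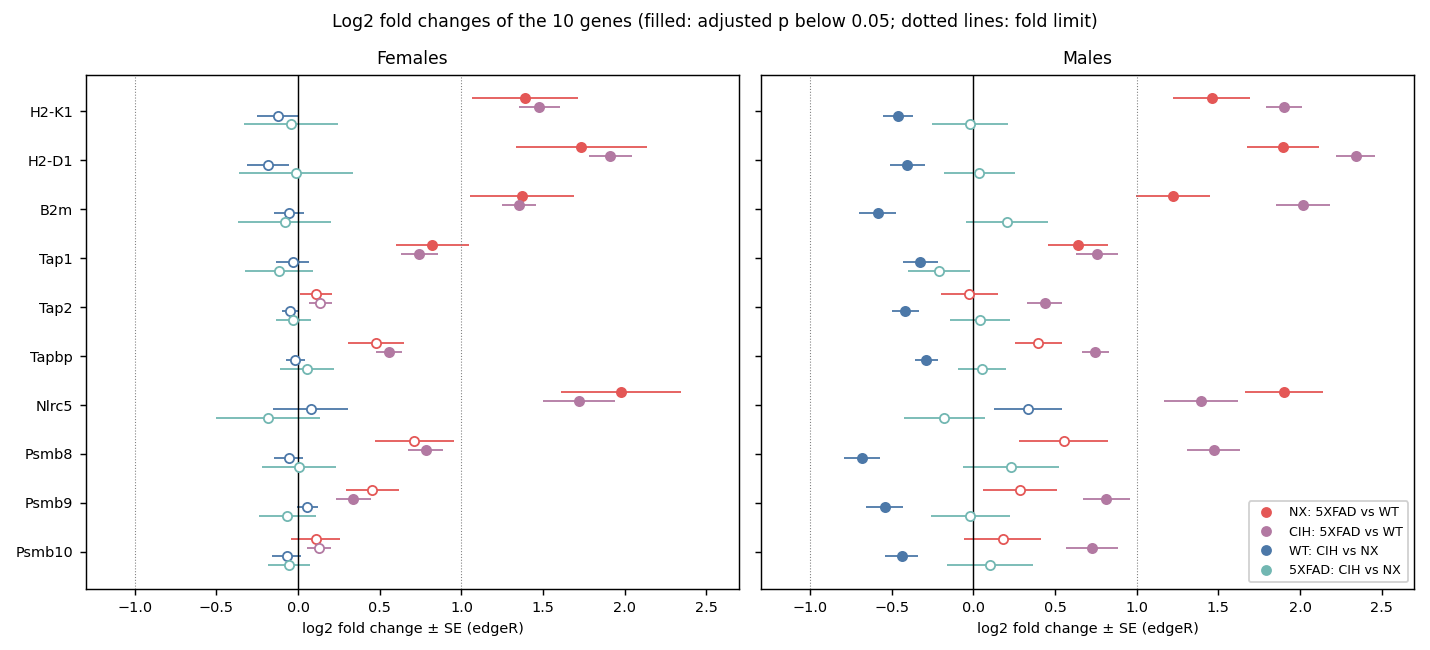
log2 fold change with its SE (horizontal axis) for each of the 10 genes (vertical axis) in the comparisons of 5XFAD with WT and of CIH with NX, females and males apart. Filled points had an adjusted p below 0.05, and dotted lines mark -1 and 1. H2-K1, H2-D1, B2m and Nlrc5 lay beyond 1 in all 4 comparisons of 5XFAD with WT, and in WT males 9 genes lay below 0 after CIH.

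Markers of other cells moved with genotype. The summed level of 10 T cell markers was 2.96 to 6.81 CPM in WT NX females and 11.5 to 31.3 in 5XFAD NX females, where the lowest value was that of replicate 4. It was 3.36 to 6.26 CPM in WT CIH females and 20.1 to 33.9 in 5XFAD CIH females. In males it was 5.39 to 7.95 CPM in WT NX, 4.27 to 10.5 in WT CIH, 20.6 to 42.1 in 5XFAD NX and 23.8 to 37.3 in 5XFAD CIH. Of the T cell markers tested, 1 of 3 was a DEG with a higher level in NX females, 1 of 4 in CIH females, 1 of 3 in NX males and 5 of 7 in CIH males, where 1 was lower, and no marker was at 0 in every library of a group. Without female replicate 4, 1 of 2 T cell markers tested was higher in NX females, and without male replicates 4 and 5, 2 of 3 were higher in NX males. The sum of 10 microglia markers was 32383 to 37196 CPM in WT females and 26735 to 29865 in 5XFAD females, and in males 31309 to 40442 CPM in WT and 25826 to 31980 in 5XFAD. The sum of 7 astrocyte markers was 181 to 267 CPM in WT NX and 139.8 to 378 in 5XFAD NX females, 166 to 228 and 239.8 to 683 in these groups after CIH, 173 to 222 and 392 to 1075 in NX males, and 175 to 269 and 241 to 656 in CIH males, so that WT and 5XFAD overlapped only in NX females and CIH males. Endothelial markers summed to 54.6 to 164 CPM in WT females and 64.8 to 299 in 5XFAD females, and to 63.5 to 255 and 114 to 276 CPM in males. Oligodendrocyte markers summed to 142 to 358 and 161 to 447 CPM in females, and to 186 to 339 and 245 to 599.6 CPM in males. In NX males, 3 of 7 oligodendrocyte markers and 3 of 7 astrocyte markers were DEGs with a higher level (median log2FC 1.23 and 1.75), and without replicates 4 and 5 these were 4 and 3 (1.39 and 1.81). Monocyte and B cell markers reached lower sums in 5XFAD than in WT females, and the groups lay apart only for B cell markers after CIH. Monocyte markers, whose carriers have CD11b, summed to 62.5 to 146 CPM in WT NX and 35.01 to 67.1 in 5XFAD NX females, and to 63.6 to 97.1 and 37.5 to 66.7 CPM after CIH, with 2 of 6 DEGs lower in each and 3 of 6 in NX without replicate 4. B cell markers summed to 17.2 to 21.3 CPM in WT NX and 7.04 to 22.1 in 5XFAD NX females, where the highest value was that of replicate 4, and to 17.8 to 21.3 and 8.13 to 12.3 CPM after CIH, with no DEG among the 1 and 2 tested, and 1 of 1 lower in NX without replicate 4. In males the monocyte sums were 86.9 to 172 CPM in WT NX, 48.7 to 136 in 5XFAD NX, 55.8 to 98.5 in WT CIH and 41.7 to 99.4 in 5XFAD CIH. The male B cell sums were 28.0 to 40.3, 7.76 to 28.7, 17.8 to 24.6 and 11.7 to 29.4 CPM in this order. The part of these shifts in the class I results was not tested. In RNA from bulk cells, fewer cells of a type and less RNA per cell cannot be told apart.

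H2-K1, a classical heavy chain, read 503, 307, 400.1 and 407 CPM in the WT NX females and 1283, 864, 1290.2, 419 and 1441 in the 5XFAD NX females. After CIH it read 441, 331, 329.7, 381 and 374 CPM in WT and 911, 844, 992, 997 and 1364 in 5XFAD females. The CIH groups did not overlap, and in normoxia the 5XFAD group reached into the WT range only through replicate 4, at 419 CPM. H2-K1 rose by 1.39 ± 0.32 (SE) on the log2 scale in normoxia (adjusted p = 0.0291), by 1.58 ± 0.18 there without replicate 4, and by 1.48 ± 0.12 under CIH (adjusted p = 5.64e-07). Among males, the levels were 532, 529.6, 639, 636 and 702 CPM in WT NX and 2559, 1763, 1966, 1042 and 1014 in 5XFAD NX. Under CIH they were 495, 451, 403, 428 and 428 CPM in WT and 1591, 1344, 1632, 1633 and 2005 in 5XFAD males. Neither pair of groups overlapped, with 5XFAD NX replicates 4 and 5 the lowest of the 5XFAD males. The log2FC was 1.46 ± 0.24 in normoxia (adjusted p = 8.71e-04) and 1.90 ± 0.11 under CIH (adjusted p = 9.01e-09). Without replicates 4 and 5 the normoxic difference in males was 1.78 ± 0.13.

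H2-D1, the other classical heavy chain, had a larger log2FC than H2-K1 in each comparison of genotypes. Its female levels were 867, 531, 607 and 685 CPM in WT NX and 2771, 2083, 2772, 605 and 2978 in 5XFAD NX. Under CIH they were 659.9, 503, 530.0, 644 and 629 CPM in WT and 2177, 1967, 1902, 1943 and 3039 in 5XFAD. As for H2-K1, replicate 4 alone brought 5XFAD NX into the WT range, and the CIH groups lay apart. The gene rose by 1.73 ± 0.40 in normoxia (adjusted p = 0.0283), by 1.97 ± 0.17 there without replicate 4, and by 1.91 ± 0.13 under CIH (adjusted p = 9.55e-08). In the male groups, WT NX held 614, 620.2, 652, 722 and 868 CPM and 5XFAD NX 3624, 2834, 3147, 1665 and 1656. WT CIH held 634, 515, 466, 512 and 500.2 CPM and 5XFAD CIH 2611, 2142, 2785, 2616 and 3088. Both pairs lay apart, and the 5.07-fold difference under CIH was the largest of any of the 10 genes in the 4 comparisons. The log2FC was 1.90 ± 0.22 in normoxia (adjusted p = 7.27e-05), 2.20 ± 0.12 there without replicates 4 and 5, and 2.34 ± 0.12 under CIH (adjusted p = 2.62e-09).

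B2m, the light chain shared by all class I molecules, stood at 1437, 1185, 1545 and 1423 CPM in WT NX females and at 4745, 3884, 3633, 1346 and 4518 in 5XFAD NX females. WT CIH females had 1545, 1184, 1207, 1417 and 1392 CPM and 5XFAD CIH females 3737, 2926, 3153, 3133 and 4084. Here too the female NX groups met only at replicate 4. B2m rose by 1.37 ± 0.32 in normoxia (adjusted p = 0.0283), by 1.58 ± 0.12 there without replicate 4, and by 1.35 ± 0.10 under CIH (adjusted p = 2.65e-07). WT NX males had 1832, 1688, 2453, 2627 and 2277 CPM and 5XFAD NX males 7274, 5361, 6102, 3369 and 3203. WT CIH males had 1601, 1403, 1386, 1386 and 1477 CPM and 5XFAD CIH males 4824, 4239.6, 5215, 6205 and 8740.4. No male 5XFAD value fell into the WT range of its treatment. The difference was 1.22 ± 0.23 in normoxia (adjusted p = 0.00236), 1.52 ± 0.14 there without replicates 4 and 5, and 2.02 ± 0.16 under CIH (adjusted p = 2.27e-07), and WT CIH males were lower than WT NX males, as described further on.

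**Figure D2:**
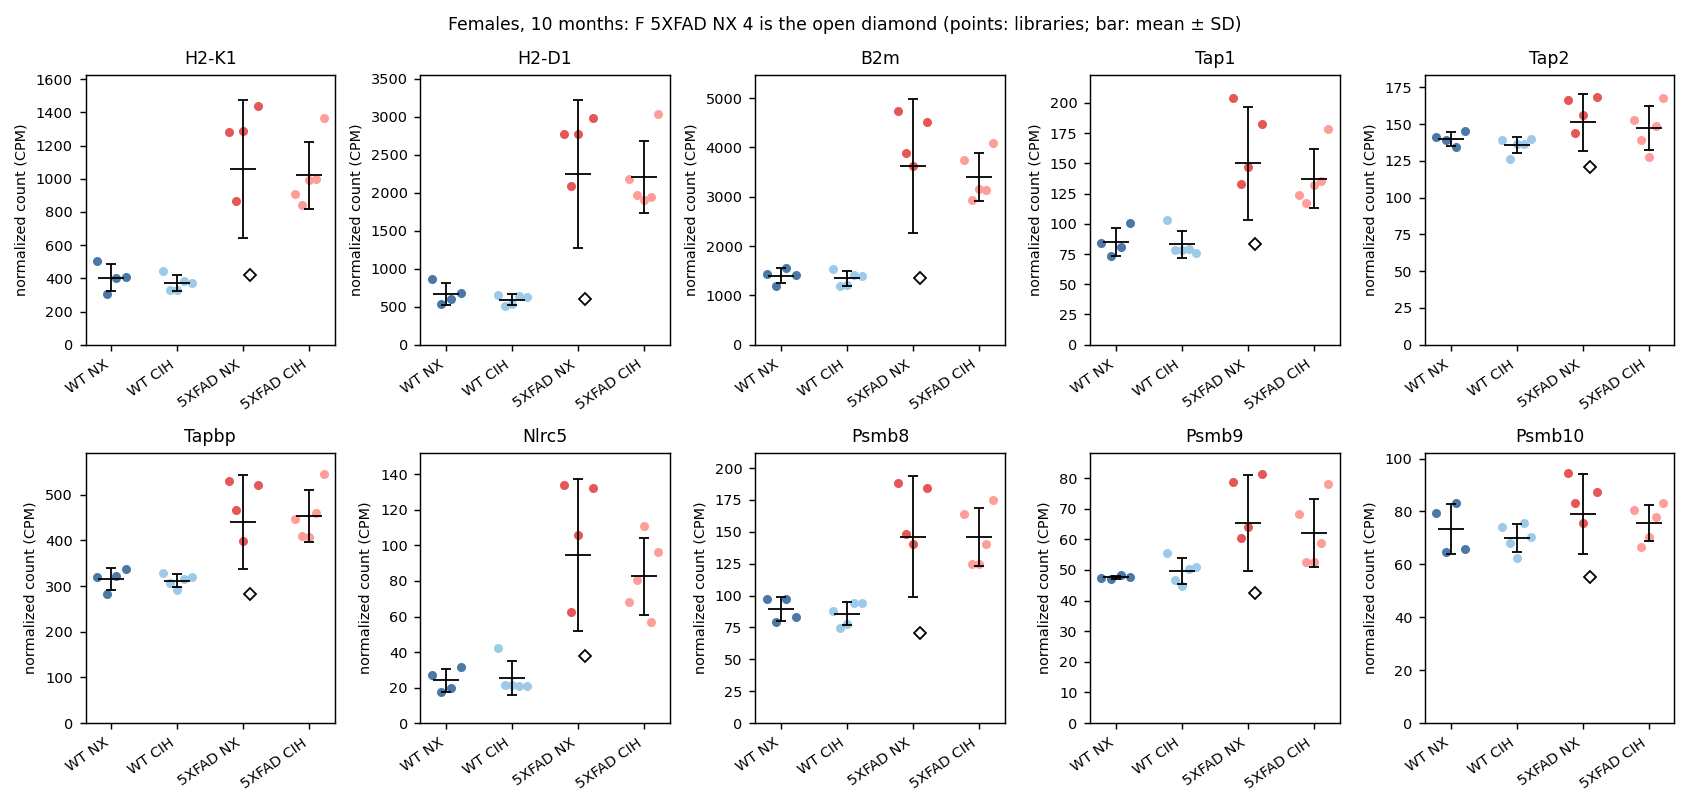
CPM (vertical axis, from 0) of the 10 genes in each female library, by genotype and treatment (horizontal axis), with the mean and SD of each group. The open diamond is 5XFAD NX replicate 4, which lies among or near the WT libraries, for example at 605 CPM of H2-D1 where the other 5XFAD NX libraries lie between 2083 and 2978.

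**Figure D3:**
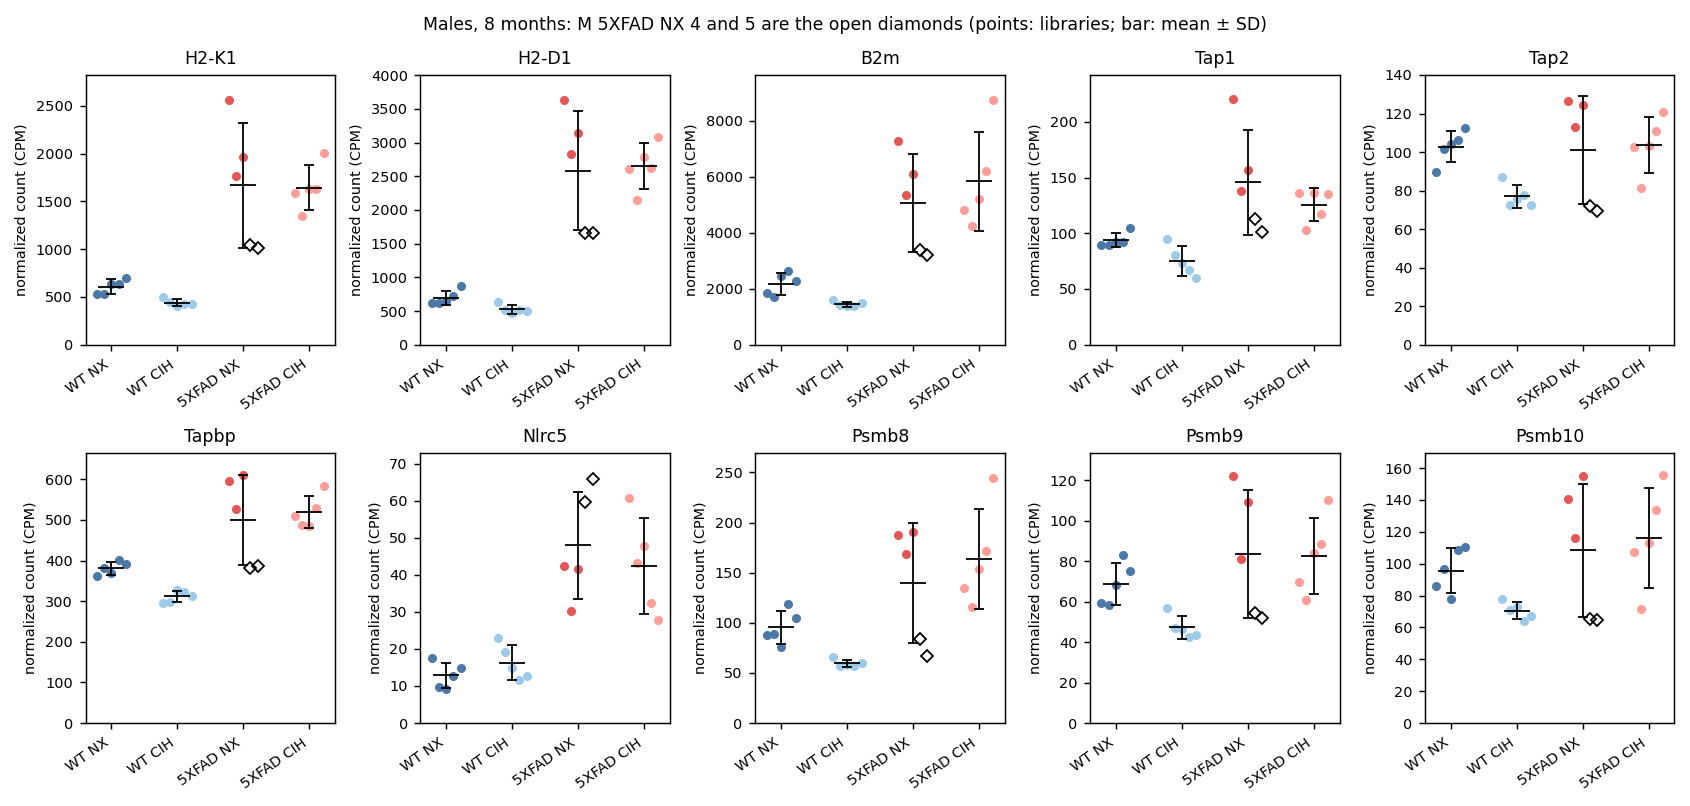
CPM (vertical axis, from 0) of the 10 genes in each male library, by genotype and treatment (horizontal axis), with the mean and SD of each group. Open diamonds are 5XFAD NX replicates 4 and 5, which are the lowest of their group for 9 genes and the highest for Nlrc5.

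Tap1 and Tap2 encode the 2 chains of the peptide transporter, and only the Tap1 chain rose in each comparison of genotypes. Tap1 read 84.0, 73.7, 80.9 and 101 CPM in WT NX females and 204, 133, 147, 83.6 and 183 in 5XFAD NX females, and 5XFAD replicate 4 lay within the WT range. Under CIH the female levels were 76.1 to 103 CPM in WT and 117 to 179 in 5XFAD, without overlap. The log2FC was 0.82 ± 0.22 in normoxia (adjusted p = 0.0424), 0.96 ± 0.14 there without replicate 4, and 0.74 ± 0.12 under CIH (adjusted p = 1.32e-04). In males Tap1 was 89.4 to 105 CPM in WT NX and 101 to 221 in 5XFAD NX, and 59.5 to 94.6 in WT CIH and 103 to 137 in 5XFAD CIH. The NX ranges met and the CIH ranges did not. Tap1 differed by 0.64 ± 0.18 in normoxia (adjusted p = 0.0285), by 0.87 ± 0.13 there without replicates 4 and 5, and by 0.76 ± 0.13 under CIH (adjusted p = 2.11e-04).

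Tap2 was 141, 139, 134 and 146 CPM in WT NX females and 167, 144, 156, 121 and 168 in 5XFAD NX females. The groups overlapped, and the log2FC was 0.11 ± 0.10 (adjusted p = 0.438), or 0.17 without replicate 4 (adjusted p = 0.0585). Under CIH it was 0.14 ± 0.07 in females (adjusted p = 0.128). Male levels were 89.8, 102, 104, 106 and 112 CPM in WT NX and 127, 113, 124, 71.9 and 69.4 in 5XFAD NX. 5XFAD replicates 4 and 5 were the lowest of these 10 libraries and replicates 1 to 3 the highest. The log2FC was -0.02 ± 0.18 (adjusted p = 0.952), and 0.24 without replicates 4 and 5 (adjusted p = 0.0674). Under CIH Tap2 rose by 0.44 ± 0.11 in 5XFAD males (adjusted p = 0.00361), from 72.3 to 87.1 CPM in WT to 81.3 to 121 in 5XFAD, where the ranges met.

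Tapbp, the loading chaperone tapasin, was 316 ± 23.1 CPM in WT NX females (SD, n = 4) and 440.1 ± 103 in 5XFAD NX females (n = 5), a log2FC of 0.48 ± 0.17 that did not pass (adjusted p = 0.0824). Without replicate 4 it passed at 0.60. Under CIH it rose from 312 ± 14.0 to 454 ± 56.2 CPM in females (log2FC 0.56 ± 0.08, adjusted p = 6.95e-05) and from 312 ± 14.3 to 519 ± 40.2 in males (log2FC 0.75 ± 0.08, adjusted p = 5.50e-06). Neither CIH pair overlapped. In NX males the log2FC was 0.40 ± 0.14 (adjusted p = 0.0794), and it passed at 0.60 without replicates 4 and 5.

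Nlrc5, the class I transactivator, was low in WT and had the largest fold change of the 10 genes in NX females. It read 26.8, 17.8, 19.9 and 31.4 CPM in WT NX females and 134, 62.8, 106, 37.7 and 132 in 5XFAD NX females. Under CIH it read 42.1, 21.4, 21.6, 20.8 and 21.1 CPM in WT and 68.1, 80.8, 111, 56.8 and 96.6 in 5XFAD females. Nlrc5 was the only member that separated the NX groups, and replicate 4, at 37.7 CPM, was nearer to WT than to the rest of its group. The gene rose by 1.98 ± 0.37 in normoxia (adjusted p = 0.0177), by 2.17 ± 0.25 there without replicate 4, and by 1.72 ± 0.22 under CIH (adjusted p = 2.44e-05). In males, WT NX read 17.5, 9.86, 9.26, 12.7 and 14.9 CPM and 5XFAD NX 42.5, 30.3, 41.5, 59.6 and 66.0. WT CIH males read 22.998, 19.1, 14.8, 11.8 and 12.6 CPM and 5XFAD CIH males 60.8, 43.1, 47.8, 32.4 and 27.9. All 5XFAD males lay above all WT males of their treatment, and here replicates 4 and 5 were the highest of 5XFAD NX. The differences were 1.90 ± 0.24 in normoxia (adjusted p = 1.31e-04), 1.56 ± 0.20 without replicates 4 and 5, and 1.39 ± 0.23 under CIH (adjusted p = 1.68e-04).

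Psmb8, the immunoproteasome's chymotrypsin-like subunit, read 96.9, 79.1, 97.3 and 83.1 CPM in WT NX females and 189, 148, 140.2, 70.3 and 184 in 5XFAD NX females. With replicate 4 below the whole WT group, the log2FC of 0.71 ± 0.24 did not pass (adjusted p = 0.0723), and without it Psmb8 rose by 0.88. In CIH females it rose by 0.78 ± 0.11 (adjusted p = 4.20e-05), from 74.9 to 94.4 CPM in WT to 124 to 175 in 5XFAD. Male levels were 88.2, 88.7, 76.1, 119 and 105 CPM in WT NX and 188, 169, 191, 83.6 and 67.3 in 5XFAD NX. Under CIH they were 65.7, 56.7, 58.0, 57.0 and 59.9 CPM in WT and 135, 115, 153, 171 and 245 in 5XFAD males. The CIH groups were far apart, while in normoxia replicate 4 lay within the WT range and replicate 5 below it. The log2FC was 0.55 ± 0.27 in normoxia (adjusted p = 0.196), 0.94 ± 0.12 without those replicates (adjusted p = 4.21e-05), and 1.47 ± 0.16 under CIH (adjusted p = 4.52e-06), where Psmb8 was the only DEG beside the heavy chains, B2m and Nlrc5.

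Psmb9 and Psmb10, the caspase-like-site and trypsin-like-site replacements, moved less. Psmb9 was 47.6 ± 0.516 CPM in WT NX females (SD, n = 4) and 65.3 ± 15.7 in 5XFAD NX females, with log2FC 0.45 ± 0.16 (adjusted p = 0.0836), and 0.57 without replicate 4. In CIH females the log2FC was 0.34 ± 0.11 (adjusted p = 0.0188), between overlapping ranges of 44.7 to 55.6 and 52.5 to 78.2 CPM. In males Psmb9 differed by 0.28 ± 0.23 in normoxia (adjusted p = 0.463), by 0.60 without replicates 4 and 5 (adjusted p = 0.00472), and by 0.81 ± 0.14 under CIH (adjusted p = 3.34e-04), from 42.5 to 57.0 to 60.7 to 110.0 CPM. The latter ranges did not meet. Psmb10 was 73.4 ± 9.36 CPM in WT NX and 79.1 ± 15.0 in 5XFAD NX females, and its log2FC was 0.11 ± 0.15 in normoxia (adjusted p = 0.634), 0.20 ± 0.10 there without replicate 4 (adjusted p = 0.137), and 0.13 ± 0.07 under CIH (adjusted p = 0.175). In NX males it was 0.18 ± 0.24 (adjusted p = 0.684), and 0.52 without replicates 4 and 5 (adjusted p = 0.00574). In CIH males it rose by 0.73 ± 0.16 (adjusted p = 0.00164), from 64.1 to 77.9 CPM to 71.3 to 155, where 1 5XFAD library lay in the WT range.

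The split within the male 5XFAD NX group ran through the 10 genes. In replicates 4 and 5, 9 of the 10 were lower than in replicates 1 to 3. Psmb8, for example, stood at 83.6 and 67.3 CPM in them against 169 to 191. Nlrc5, with 8493 bases the longest gene model of the 10 in the male table, was instead higher, at 59.6 and 66.0 CPM against 30.3 to 42.5. The part of gene length in this split was not tested.

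**Figure D4:**
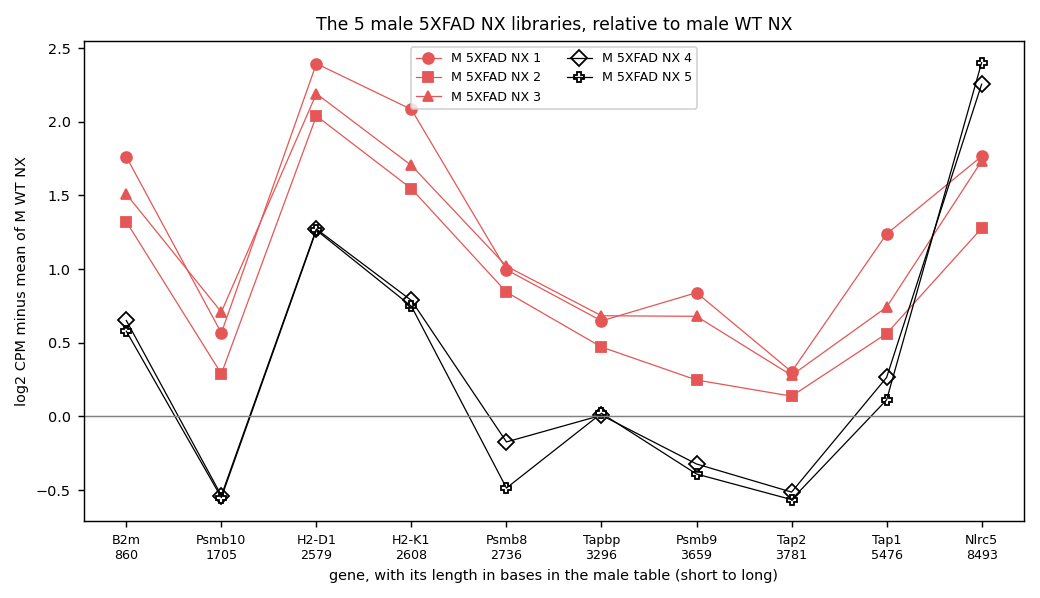
Difference in log2 CPM from the mean of the male WT NX libraries (vertical axis) for the 10 genes ordered by gene length (horizontal axis), with 1 line for each male 5XFAD NX library. Replicates 4 and 5 lie below replicates 1 to 3 for 9 genes and above them for Nlrc5, the longest.

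The second comparison asked what CIH exposure did within a genotype. Within WT males, 9 of the 10 genes were lower after CIH, by 0.29 to 0.68 on the log2 scale, and only Nlrc5 did not pass. None was a DEG, where 0.881% of all genes were DEGs with a lower level. The 9 that passed stand against 15.0% of all genes that fell at the same adjusted p, and 6 of the 10 did not overlap between the groups, against 9.02% of genes. The median log2FC of the 10 was -0.43, where that of all genes was -0.01.

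By role, B2m fell by 0.59 ± 0.11 in WT males (adjusted p = 0.00157), H2-K1 by 0.46 ± 0.09 (adjusted p = 0.0021) and H2-D1 by 0.40 ± 0.11 (adjusted p = 0.0107). The B2m and H2-K1 values listed above had WT CIH below WT NX in all libraries, while H2-D1 overlapped at WT CIH replicate 1, with 634 CPM. Tap2 fell by 0.42 ± 0.08 (adjusted p = 0.00221), from 89.8, 102, 104, 106 and 112 CPM to 87.1, 72.3, 75.7, 77.8 and 72.5, Tap1 by 0.33 ± 0.11 (adjusted p = 0.0341) and Tapbp by 0.29 ± 0.07 (adjusted p = 0.00678). Of these 3, Tap1 overlapped between the groups. Of the immunoproteasome subunits, Psmb8 had the largest fall of the 10 genes, by 0.68 ± 0.11 (adjusted p = 5.68e-04), and Psmb9 fell by 0.54 ± 0.11 (adjusted p = 0.00262) and Psmb10 by 0.44 ± 0.10 (adjusted p = 0.00478). Psmb8 and Psmb9 separated the groups and Psmb10 did not. Nlrc5 had a log2FC of 0.34 ± 0.21 (adjusted p = 0.245).

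These falls in WT males depended on the fit. With all 4 male groups in 1 edgeR fit, which shares the wider spread of the 5XFAD libraries, none of the 10 passed, with adjusted p from 0.0847 to 0.196 for the 9 genes. No gene of the 15813 tested fell at the adjusted p in that fit (0%). On the WT libraries alone, DESeq2, edgeR's likelihood ratio test and limma on log2(FPKM + 1) each passed 9, against 15.5%, 15.8% and 15.4% of all genes that fell. Without WT CIH replicate 5 edgeR passed 8, against 12.5% of all genes, with a median of -0.41 and Tap1 at -0.25 (adjusted p = 0.087). Some markers of other cells were lower in the WT CIH males too. Of 10 neutrophil markers 6 were DEGs with a lower level (summed level 1168 to 2210 CPM in WT NX and 1094 to 1501 in WT CIH), as were 4 of 6 monocyte markers (86.9 to 172 and 55.8 to 98.5 CPM). Without WT CIH replicate 5 these were 6 and 3. Of 10 microglia markers 4 fell at the adjusted p alone, and their sum was 36261 to 40442 CPM in WT NX and 31309 to 36089 in WT CIH. NK cell markers summed to 10.7 to 16.4 CPM in WT NX and 6.54 to 9.90 in WT CIH. Astrocyte sums went the other way, with medians of 186 CPM in WT NX and 253 in WT CIH. So did oligodendrocyte sums (226 and 259), and both pairs of ranges overlapped. Border macrophage sums had medians of 239.5 and 240.1 CPM. The part of these markers in the result was not tested. Across all genes, the log2FC of this comparison also rose with gene length (Spearman 0.362). With a fitted length trend subtracted, the median over the 10 was -0.38, and the 9 genes had values below 0. These values carry no error or p-value, and the part of gene length in the falls was not tested.

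In the other comparisons of CIH with NX none of the 10 passed. In WT females the edgeR test called none of 14583 genes (0%), with 565 at an unadjusted p below 0.05 and none of the 10 among them, and DESeq2, the likelihood ratio test and limma passed 0 of the 10. The log2FC of the 10 lay between -0.18 and 0.08, around a median of -0.05. In 5XFAD females edgeR called none of 14578 genes (0%), with 470 at an unadjusted p below 0.05 and again none of the 10, and the other 3 tools called no gene. Their log2FC lay between -0.19 and 0.05, and without 5XFAD NX replicate 4 between -0.39 and -0.07, with a median of -0.21 and no adjusted p under 0.643. In 5XFAD males edgeR called none of 14334 genes (0%), with 473 at an unadjusted p below 0.05, and no tool passed any of the 10. The log2FC lay between -0.21 and 0.23 around a median of 0.04. Without 5XFAD NX replicates 4 and 5 it ran from -0.44 for Tap1 to 0.17 for Nlrc5, with a median of -0.22. None of the 13758 genes tested then passed in edgeR, and the lowest adjusted p of the 10 was 0.495 (Tap1).

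Whether the genotype difference changed with CIH was tested by an interaction term over the 4 groups of a table. In females edgeR called none of 15582 genes (0%), with 589 at an unadjusted p below 0.05 and none of the 10 among them. The median interaction of the 10 was 0.01, and -0.12 without 5XFAD NX replicate 4, with no adjusted p under 0.962. In males it called none of 15813 genes (0%), with 3857 at an unadjusted p below 0.05. Among these were 3 of the 10, Psmb8 (0.91 ± 0.34, adjusted p = 0.131), B2m (0.79 ± 0.29, adjusted p = 0.131) and Tap2 (0.45 ± 0.21, adjusted p = 0.194). DESeq2, the likelihood ratio test and limma passed 0 of the 10, though DESeq2 passed 1017 other genes and the likelihood ratio test 248. The median interaction of the 10 was 0.45 in males, where that of all genes was -0.04. Without 5XFAD NX replicates 4 and 5 the median was 0.16, and edgeR passed none of 15640 genes. Psmb8 then stood at 0.52 ± 0.23, B2m at 0.49 ± 0.24 and Tap2 at 0.19 ± 0.15 (adjusted p = 0.452, 0.488 and 0.693).

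Within a library, ratios of 2 genes were used to ask whether the pathway's parts moved in step. They were computed from FPKM and tested by a 2-sided exact permutation test, with p adjusted over 32 tests (4 ratios in 8 comparisons). Of these, 8 were below an adjusted p of 0.05, each at the smallest p that 5 against 5 libraries can give, 0.00794, or 0.0318 adjusted. Leaving out any library of the CIH groups raises that smallest p, and none of the 32 then passed.

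The heavy chains differed in how much they rose with genotype. Their ratio passed in 3 of 8 comparisons, all of genotype, and after CIH in WT males it differed by 0.06 on the log2 scale (exact permutation test, adjusted p = 0.532). H2-D1/H2-K1 was 1.43, 1.46, 1.54, 1.62 and 1.61 in the WT CIH females and 2.29, 2.24, 1.84, 1.87 and 2.14 in the 5XFAD CIH females. The groups lay apart, at 1.53 ± 0.0860 and 2.07 ± 0.209 (SD, n = 5, exact permutation test, adjusted p = 0.0318). In NX females the ratio was 1.65, 1.66, 1.45 and 1.61 in WT and 2.07, 2.31, 2.06, 1.39 and 1.98 in 5XFAD, where replicate 4 had the lowest value. The difference of 0.28 on the log2 scale did not pass (exact permutation test, adjusted p = 0.169), nor did 0.40 without replicate 4 (adjusted p = 0.0914). In males the ratio went from 1.16 ± 0.0801 to 1.59 ± 0.0886 in normoxia and from 1.20 ± 0.0563 to 1.64 ± 0.0624 under CIH (n = 5, exact permutation test, adjusted p = 0.0318 each). Without 5XFAD NX replicates 4 and 5 the normoxic difference in males was 0.43 on the log2 scale in place of 0.46, at the smallest p that 5 against 3 libraries allow (exact permutation test, p = 0.0357, adjusted p = 0.104). All male 5XFAD libraries, replicates 4 and 5 included, lay at or above 1.43 and all male WT libraries at or below 1.30.

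The immunoproteasome subunits were set against the constitutive subunits they replace. Psmb8/Psmb5 was 2.48, 2.02, 1.94, 2.22 and 1.94 in WT CIH females and 2.97, 2.77, 3.12, 2.65 and 3.27 in 5XFAD CIH females. In males it was 0.609, 0.626, 0.499, 0.634 and 0.633 in WT CIH and 0.828, 0.803, 0.927, 0.838 and 0.909 in 5XFAD CIH. Both pairs lay apart, with log2 differences of 0.48 and 0.52 (n = 5, exact permutation test, adjusted p = 0.0318 each). In normoxia the ratio went from 2.01 to 3.09 in females (n = 4 and 5, exact permutation test, adjusted p = 0.0564) and from 0.669 to 0.908 in males (adjusted p = 0.102). Without female replicate 4 the log2 difference was 0.73 in place of 0.61 (adjusted p = 0.0914), and without male replicates 4 and 5 it was 0.55 in place of 0.43 (adjusted p = 0.104). Psmb9/Psmb6 went the other way under CIH, and in normoxia it passed in neither sex. The ratio was 1.03 ± 0.0615 in WT CIH and 0.770 ± 0.0728 in 5XFAD CIH females, and 0.438 ± 0.0448 and 0.285 ± 0.0240 in males (n = 5, exact permutation test, adjusted p = 0.0318 each). In normoxia the ratio was 0.905 in WT and 0.932 in 5XFAD females (log2 difference 0.04, n = 4 and 5, exact permutation test, adjusted p = 0.841), or -0.02 without replicate 4. It was 0.419 and 0.352 in males (log2 difference -0.25, n = 5, exact permutation test, adjusted p = 0.106), or -0.35 without replicates 4 and 5 (adjusted p = 0.104). Psmb6 itself rose in the CIH comparisons, by 0.75 ± 0.09 in females and 1.46 ± 0.16 in males (log2FC), which was more than Psmb9. Psmb9/Psmb6 also fell in 5XFAD males from 0.352 ± 0.0413 in NX to 0.285 ± 0.0240 in CIH (log2 difference -0.30, n = 5, exact permutation test, adjusted p = 0.0318). Without 5XFAD NX replicates 4 and 5 this was -0.21 (adjusted p = 0.104). Psmb10/Psmb7 passed in no comparison, and none of the 4 ratios passed between NX and CIH in WT males or in females. The levels of these ratios differ between the female and male tables, which were annotated and normalized apart, and were not compared.

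**Figure D5:**
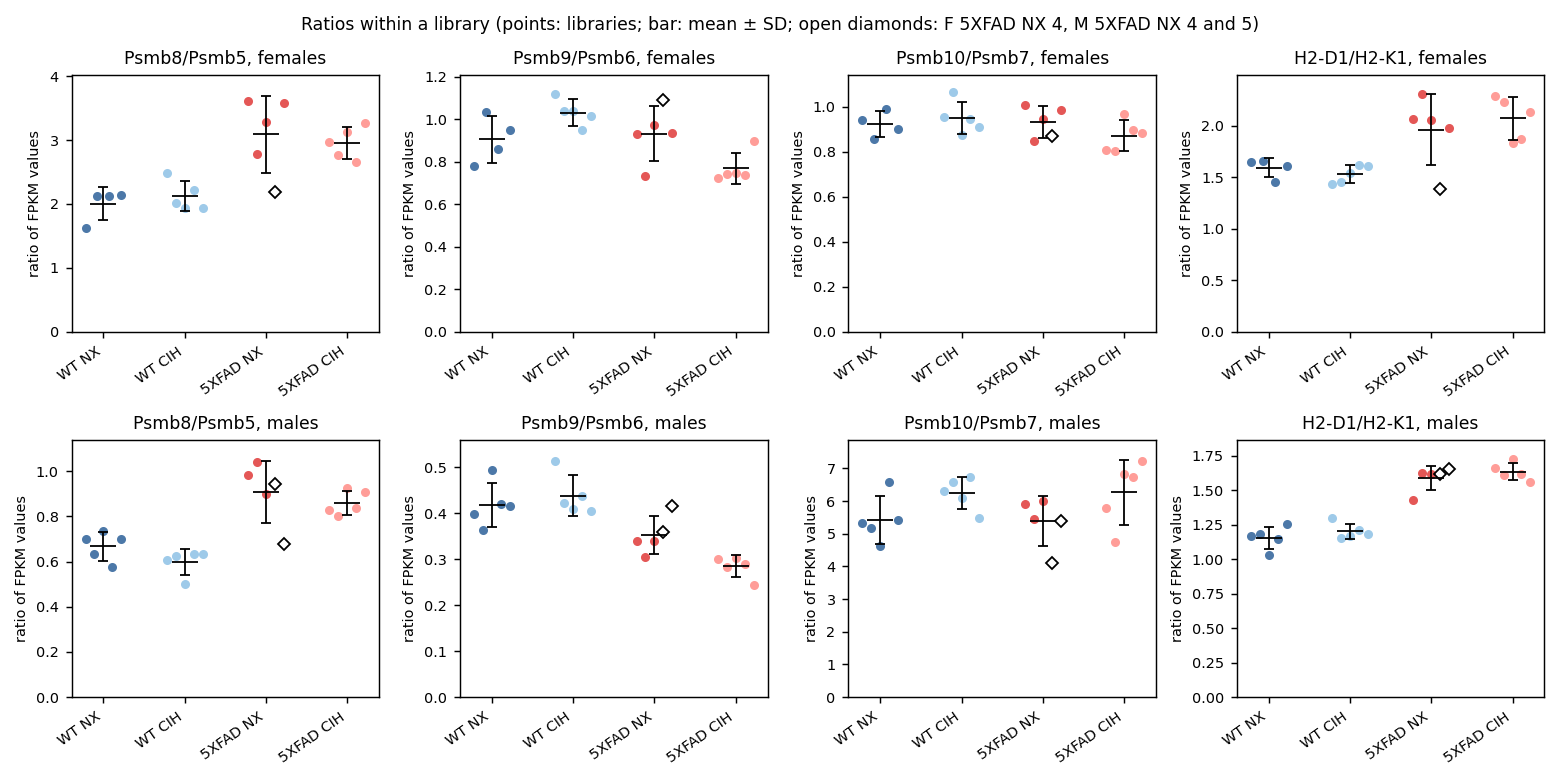
FPKM ratio (vertical axis) in each library by group (horizontal axis), with mean and SD, for H2-D1/H2-K1, Psmb8/Psmb5, Psmb9/Psmb6 and Psmb10/Psmb7 in females and males. In both sexes the CIH libraries of 5XFAD lie above those of WT for H2-D1/H2-K1 and Psmb8/Psmb5, and below them for Psmb9/Psmb6.

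Other class I heavy chains, among them the nonclassical H2-Q, H2-T and H2-M genes, included many that rose in 5XFAD mice. Of 25 listed, 16 were tested in NX females with 6 DEGs higher and none lower, 15 in CIH females with 6 higher, 14 in NX males with 5 higher, and 14 in CIH males with 8 higher and 1 lower. Their median log2FC was 0.73, 0.94, 0.78 and 1.09 in this order. H2-Q7 read 1.59 ± 0.625 CPM in WT NX females (SD, n = 4) and 9.61 ± 5.58 in 5XFAD NX females (n = 5), and 11.1 ± 2.09 and 59.0 ± 41.2 CPM in the same groups of males (n = 5). Its log2FC was 2.57 ± 0.55 in NX females (adjusted p = 0.0235), 2.65 ± 0.36 in CIH females (3.84e-05), 2.41 ± 0.37 in NX males (6.03e-04) and 2.85 ± 0.18 in CIH males (2.13e-08). H2-Q6 rose by 2.02 to 2.53 and H2-Q5 by 1.93 to 2.16 over the 4 comparisons, H2-Q9 by 2.61 and 2.13 in females, and H2-Q4 by 1.24 and 1.39 in males. Without female 5XFAD NX replicate 4, 8 of 15 were DEGs with a higher level and 1 with a lower level in NX females (median 1.06), and without male replicates 4 and 5, 7 of 14 were higher in NX males (median 1.01). H2-Q7 then differed by 2.82 ± 0.37 and 2.80 ± 0.27. After CIH in WT males, 6 of 14 fell at the adjusted p, H2-Q7 by 0.57 (adjusted p = 0.0226), and H2-T24 rose by 0.66. Without WT CIH replicate 5, 4 of 14 fell, and H2-Q7 no longer passed (-0.52, adjusted p = 0.0581). H2-Q sequences resemble each other, and 3.86% to 9.87% of the 150-base windows of H2-Q4, H2-Q5, H2-Q6 and H2-Q7 occur in transcripts of other genes, so reads of single H2-Q genes are uncertain.

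For H2-K1 none of the 150-base windows occurred in another gene's GENCODE transcript, and for H2-D1 1.35% did, in H2-Q1. The longest coding stretch that H2-K1 and H2-D1 share is shorter than a read. It is shown because it marks how near the 2 heavy chains are, and lies in coding exon 4 of both, at chr17:33997343-33997433 (minus strand) and chr17:35265911-35266001 (plus strand).
H2-K1 and H2-D1: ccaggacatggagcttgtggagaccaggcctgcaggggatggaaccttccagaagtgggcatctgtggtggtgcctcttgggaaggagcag
It is 91 bases long, out of 1107 coding bases of H2-K1 and 1086 of H2-D1. Windows of Tapbp (10.1%, in Gm19412), Psmb8 (4.55%, in Gm20496) and Tap2 (0.565%, in Gm15821) occurred in the other transcripts named, and those of B2m, Tap1, Nlrc5, Psmb9 and Psmb10 in none.

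Of 14 constitutive 20S subunits, edgeR called none at the adjusted p between 5XFAD and WT in NX females or in NX males, with 1 at an unadjusted p below 0.05 in each. Without female replicate 4, 3 rose and 1 fell in NX females, and without male replicates 4 and 5, 7 rose in NX males, Psmb6 by 0.93 ± 0.13. In CIH females none was a DEG and 8 rose at the adjusted p, Psmb6 and Psmb1 (0.64 ± 0.08) the most. In CIH males 4 were DEGs and 13 rose, among them Psmb6, Psmb1 (1.11), Psmb4 (1.08) and Psmb3 (1.07). In WT males 13 of 14 fell after CIH, Psma6 by 0.69 ± 0.10 and Psmb7 by 0.64 ± 0.11, with a median of -0.53. The interaction of genotype and treatment in males had 11 of the 14 at an unadjusted p below 0.05, with a median of 0.70, and none passed the adjusted p. Of the 9 proteasome activators and assembly factors, 4 were DEGs in CIH males. They were the chaperone Psmg4 (1.77 ± 0.19), the PA28 subunits Psme1 (1.31) and Psme2 (1.20), and the proteasome assembly factor Pomp (1.21). In NX females Psme1 rose by 0.64 ± 0.18 (adjusted p = 0.0458), in CIH females 4 of 9 rose, and in NX males edgeR passed none, with 1 at an unadjusted p below 0.05. Without female replicate 4, or without male replicates 4 and 5, 4 rose and 1 fell in normoxia, with Psme1 at 0.78 ± 0.09 in females and 0.85 ± 0.13 in males. In WT males 6 of 9 fell after CIH, Psmg4 by 0.66 and Psme1 by 0.62, and 1 rose, and without WT CIH replicate 5 a total of 5 fell, with Psmg4 at -0.62 (adjusted p = 0.0516).

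Among 15 genes of peptide trimming, folding and loading, Sec61g, a translocon subunit, was a DEG in CIH females (1.03 ± 0.18), in NX males (1.06 ± 0.31, adjusted p = 0.0303) and in CIH males (1.91 ± 0.24), where Sec61b (1.39 ± 0.18) and the chaperone Calr (1.14 ± 0.10) were DEGs too. In NX females edgeR passed none, with 5 at an unadjusted p below 0.05, Sec61g at 0.73 (adjusted p = 0.113) and Calr at 0.69 (adjusted p = 0.0822). Without replicate 4, 10 rose in NX females, Sec61g by 0.92 ± 0.18 and Calr by 0.85 ± 0.14, with no DEG, and without male replicates 4 and 5, 5 rose and 2 fell in NX males, with Sec61g at 1.42 ± 0.23. The medians over the 15, in the order NX females, CIH females, NX males and CIH males, were 0.26, 0.26, 0.25 and 0.23. Among 16 genes of transcriptional control, the interferon signaling factor Stat2 was a DEG in NX females, with a log2FC of 1.09 ± 0.22 (adjusted p = 0.0205), or 1.22 ± 0.17 without replicate 4, and at the adjusted p alone 3 of the 16 rose and none fell in NX females, 4 rose and 5 fell in CIH females, 3 rose and none fell in NX males, and 4 rose and 2 fell in CIH males. Without female replicate 4, 4 rose and 2 fell in NX females, and without male replicates 4 and 5, 4 rose and none fell in NX males. With all libraries the medians of the 16 were -0.06, -0.09, -0.06 and 0.04. At the same adjusted p, 1054 of 14513 genes rose and 959 fell in NX females. In CIH females 3906 of 14911 rose and 3833 fell. The numbers were 1545 and 1093 of 14834 in NX males, and 3739 and 3509 of 14793 in CIH males. In the list of interferon ligands, receptors and regulators, 10 of 16 were tested and Usp18, a brake on interferon signaling that interferon itself induces, was the 1 DEG in each comparison, at 2.01 ± 0.40, 1.97 ± 0.27, 1.99 ± 0.27 and 2.37 ± 0.17. In NX females and NX males without the named replicates it stood at 2.23 ± 0.25 in both. The medians of the 10 tested were 0.02, 0.03, 0.03 and -0.07.

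MHC class II, which presents peptides to CD4+ T cells, was described by 10 genes. In NX females none was a DEG (edgeR, 1 at the adjusted p), with the invariant chain Cd74 at 1.84 ± 0.61 (adjusted p = 0.0694). In CIH females 3 were DEGs, Cd74 (2.01 ± 0.28), H2-Aa (1.43) and H2-Ab1 (1.35). In NX males Cd74 was the only 1 (1.27 ± 0.38, adjusted p = 0.0347), and in CIH males 6 were, led by Cd74 (2.42 ± 0.17), H2-Ab1 (1.95) and H2-Aa (1.89). Without female replicate 4, 3 were DEGs in NX females, with Cd74 at 2.12 ± 0.36 (adjusted p = 0.00127), and without male replicates 4 and 5, 4 were DEGs in NX males, with Cd74 at 1.67 ± 0.27. The medians with all libraries were 0.57, 0.70, 0.55 and 1.14. After CIH in WT males 8 of 10 fell and H2-Ab1 was a DEG with a lower level (-1.03 ± 0.20, adjusted p = 0.00163), and without WT CIH replicate 5 it stood at -0.99 and 8 still fell.

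The genes whose log2 CPM followed the mean of the 10 most closely over the libraries, by the smaller of the female and male Pearson r among 12212 genes, were H2-T23 (0.99), H2-T22 (0.986), H2-M3 (0.985), Bst2 (0.981) and Ifi27l2a (0.978). Of the 150-base windows of H2-T22, 22.3% occur in transcripts of other genes, most of them in A930015D03Rik, so its reads are uncertain. H2-T23, which encodes the Qa-1 heavy chain, differed between genotypes by 0.96 and 0.94 in NX and CIH females and by 0.91 and 1.28 in NX and CIH males, and by -0.42 after CIH in WT males (log2FC). Among the 10 genes, the 45 pairs had a median Pearson r of 0.897 in females and 0.848 in males across all libraries of a table. H2-K1 and H2-D1 were the pair with the highest r in both tables, 0.991 and 0.993. With each group's mean removed the medians were 0.852 (0.516 to 0.968) and 0.865 (-0.565 to 0.971). Female 5XFAD NX replicate 4 was kept here, with a mean log2 CPM of the 10 genes of 7.24, against 8.13 to 8.56 in its group. Male 5XFAD NX replicates 4 and 5 were kept too, at 7.81 and 7.75 against 8.31 to 8.70. The part of these libraries in the r values was not tested. The pairs share libraries and depth, and the male pairs below 0 were those of Nlrc5, whose r with the other members after centering ran from -0.565 with Tapbp to 0.013 with Tap1.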

How the data were processed

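Bead-isolated CD11b+ cells were sequenced in 39 libraries (19 female, 20 male) as paired reads of 150 bases. The authors aligned them to GRCm38/mm10, with HISAT2 named in the submitters' notes, and deposited raw read counts and FPKM per gene in 1 table per sex. The counting tool and annotation are not given in the sources used here. The 10 genes and 19 other lists were chosen with earlier results of these data known.

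Deposited counts were filtered (CPM above 1 in at least 3 libraries), TMM-scaled and fitted with edgeR 4.0.16 (glmQLFit and glmQLFTest, R 4.3.3) on the 2 groups compared, with Benjamini-Hochberg adjustment over all genes tested. Interactions used all groups of a table. DESeq2 1.42.0, limma 3.58.1 and SciPy 1.17.1 served the alternatives and exact tests. Scripts were tested on simulated data. None of 76 pairs of libraries within a group agreed within sampling noise. All 10 genes are described, with up to 4 called genes of largest change from each other list. The result of 1 gene among the other lists is not reported here.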

Additional observations from a re-analysis of the deposited data

Results flagged for a closer look

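In 112 groups of 4 or 5 libraries, 9 had a library far from the others by Dixon's test, which chance does for about 1 group in 20. Female 5XFAD CIH replicate 5 had 3039 CPM of H2-D1, where the other 4 had 1902 to 2177, and a Psmb9/Psmb6 ratio of 0.899 against 0.725 to 0.749. Female WT CIH replicate 1 had 103 CPM of Tap1 against 76.1 to 79.4, and 42.1 CPM of Nlrc5 against 20.8 to 21.6. Female WT CIH replicate 2 had 126 CPM of Tap2 against 136 to 139.7. Male WT NX replicate 5 had 105 CPM of Tap1 against 89.4 to 92.4. The Psmb8/Psmb5 ratio was 1.63 in female WT NX replicate 1 against 2.13 to 2.14, and 0.499 in male WT CIH replicate 3 against 0.609 to 0.634. H2-D1/H2-K1 was 1.43 in male 5XFAD NX replicate 1 against 1.62 to 1.65.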

How the results depend on the processing

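No direction of a called gene reversed. Between WT NX and 5XFAD NX females, none of the 10 genes was a DEG at an FDR limit of 0.01 or with a replicate block, where none passed the adjusted p either, against 4 and 5 in the reported fit. In both cases 0.0482% of all genes were DEGs with a higher level. At the adjusted p alone 8 passed with DESeq2 (13.3% of all genes), 8 with all 4 groups in 1 fit (14.9%) and 3 with limma on log2(FPKM + 1) (4.28%), and leaving out 1 library gave 0 to 4 DEGs (0.140% to 7.16%) and 0 to 8 genes (0.140% to 21.8%). DEGs numbered 1 without 5XFAD NX replicate 1, 2 or 3, 3 without WT NX replicate 1, and 0 without 5XFAD NX replicate 5 or WT NX replicate 2, 3 or 4. Without a fold limit, 8 were called between WT CIH and 5XFAD CIH females, 10 between these groups of males, and 9 between WT NX and WT CIH males, where none passed with all 4 groups in 1 fit (0% of all genes). Of the male NX comparison of genotypes, 9 passed without 5XFAD NX replicates 4 and 5, a choice made after seeing the data, as were the removal of the length trend in WT males and the fits of the other gene lists without single libraries. The male interaction passed 2 genes without a filter on low counts (B2m and Psmb8, where 4.57% of all genes passed), and 0 to 1 when 1 library was left out (B2m without 5XFAD NX replicate 1, where 6.05% of all genes passed). Of the 32 ratio tests, 0 to 11 passed when 1 library was left out. The cause of these changes was not tested. Same-numbered replicates did not all deviate together in any comparison (r from -0.555 to 0.306, with 0 to 3 of the 4 or 5 pairs above 0.1). In the other comparisons the replicate block changed 1 call, that of Tap1 in NX males (adjusted p = 0.117). By gene, comparison and alternative, 48 of 90 calls held in NX females, 148 of 152 in CIH females, 93 of 100 in NX males, 189 of 190 in CIH males and 162 of 180 in WT males after CIH. Scaling by library size alone moved the median of all genes most in CIH males, from -0.06 to -0.43, and the medians of the 10 were then 0.58, 0.56, 0.37, 0.74 and -0.33.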

Other observations

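Of the markers of border macrophages, some were DEGs with a lower level in 5XFAD mice, 6 of 8 in NX females, 5 of 8 in CIH females, 5 of 8 in NX males and 1 of 8 in CIH males. Their summed level was 132 to 295 CPM in WT females and 64.3 to 146 in 5XFAD females. Dendritic cell markers, whose carriers are rich in class I and class II, summed to 23.1 to 49.0 CPM in WT females and 12.6 to 29.3 in 5XFAD females, and to 29.5 to 50.5 and 13.7 to 21.4 CPM in males. Their part in the class I results was not tested. After CIH in WT males, B cell markers summed to 17.8 to 24.6 CPM, against 28.0 to 40.3 in WT NX.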
